A study of Mus musculus with 6 samples.

Results

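Sp1, Sp3, Sp4, Klf2, Klf3, Klf6, Klf7 and Klf13 encode transcription factors of the Sp and Krüppel-like (KLF) zinc finger family. The accessible regions of their loci were taken by position from an ATAC-seq count matrix, in which 35 of 24605 regions met the rule. A region was counted for a gene when it overlapped the gene's span, or when its nearest protein-coding gene end was an end of that gene and lay within 50 kb. The genes themselves were chosen from earlier results of the same palmitate-control contrast, in which the Sp1 gene end stood among the higher regions. The fold changes and calls below are therefore a description of these loci and test nothing about the family. The farthest region inside the 50 kb limit lay 42.8 kb from Klf6 (log2 fold change, palmitate over control, -0.43 ± 0.38, SE). The nearest one beyond it lay 57.8 kb from Sp4 (-0.86 ± 0.39, SE).

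The treated cells were wild-type mouse CD8+ T cells given 100 µM palmitate, a saturated fatty acid, and they were set against wild-type control CD8+ T cells (3 libraries each), with the assay after 48 hours. The cells came from pancreas, spleen and lymph nodes, and 50000 FACS-purified cells entered each library. The labels name palmitate in a protocol shared by all samples, and groups were taken from the treatment field. They give no strain, age or vehicle, nor whether the replicates were separate animals or cultures, so every error given reflects how the libraries varied, a spread that can be technical. Accessibility was read as raw counts per region and as CPM (counts scaled to a common library size) on TMM-scaled library sizes. In bulk libraries a site open in more cells and a site more open per cell cannot be told apart.

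Counts in regions totalled 2614890 to 3089230 per palmitate library and 2219136 to 2855574 per control library. All 8 genes listed as CD8 T cell markers had a gene-end region, with summed levels of 317 to 370 CPM in palmitate libraries and 339 to 363 CPM in controls, and 1 of the 8, Thy1, was called lower (log2 fold change -0.55 ± 0.16, SE). Of the 15 marker genes of B, CD4 T, myeloid, natural killer and pancreas cells, 12 had no gene-end region among those used. The others were Zbtb7b, a factor of CD4 T cells (46.5 to 73.4 CPM in palmitate libraries and 34.9 to 51.4 in controls, called higher), Itgam, a myeloid integrin (9.85 to 13.0 and 5.32 to 7.14 CPM, called higher), and Cela1, a pancreatic elastase (28.9 to 42.6 and 35.4 to 44.4 CPM, not called). The part of these cells in the results was not tested. Control 2 lay nearest to the palmitate libraries on the leading principal component (-26.4, against -42.6 and -37.0 in controls 1 and 3, and 29.1 to 39.4 in palmitate libraries).

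Sp and KLF proteins bind DNA through C2H2 zinc fingers at their C-terminal end, and they compete for GC boxes and CACCC boxes in promoters. Sp1 and Sp3 are expressed in most tissues and act at many housekeeping promoters, and Sp4 is best known from neurons. KLF2 is known in T cells as a factor of quiescence and recirculation that acts on S1pr1, a receptor for exit from lymphoid tissue. KLF3 represses genes through the corepressor CtBP, KLF6 is induced early by many stimuli, KLF7 is known from neuronal development, and KLF13 was described in human T cells as a late activator of the chemokine gene CCL5.

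The start-site windows of the family are shown because each gene's strongest region lies at its start site, and because GC boxes, the sites these proteins bind, lie in them. RefSeq windows of GRCm38.p6, the assembly of mm10, run from 250 bases before to 50 bases after a start site, and all 8 genes matched, with 9 windows in all (Sp3 has 2). The following 4 are printed 5′ to 3′ on the gene's strand, in lower case, with each GC box (GGGCGG or CCGCCC) in capitals. They are the strongest region of the matrix (Sp1), the window with most GC boxes (Klf3), where 2 boxes abut, a window with few boxes and a MEF2 element (Klf2), and one with a single box beside several CCAAT boxes (Klf6).
Sp1 (chr15:102406066-102406365, plus strand): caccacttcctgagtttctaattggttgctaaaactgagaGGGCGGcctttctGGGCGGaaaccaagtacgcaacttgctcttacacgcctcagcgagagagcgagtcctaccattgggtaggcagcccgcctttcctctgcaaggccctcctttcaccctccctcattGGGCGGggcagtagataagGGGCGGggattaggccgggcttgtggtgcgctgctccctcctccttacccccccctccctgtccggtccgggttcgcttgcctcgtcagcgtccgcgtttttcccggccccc
Klf3 (chr5:64803271-64803570, plus strand): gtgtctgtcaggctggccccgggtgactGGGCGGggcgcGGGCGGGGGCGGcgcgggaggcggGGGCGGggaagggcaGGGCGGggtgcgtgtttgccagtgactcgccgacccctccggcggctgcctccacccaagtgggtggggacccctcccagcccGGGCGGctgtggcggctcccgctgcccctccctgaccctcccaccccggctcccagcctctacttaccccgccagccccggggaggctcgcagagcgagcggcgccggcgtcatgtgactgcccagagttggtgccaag
Klf2 (chr8:72318812-72319111, plus strand): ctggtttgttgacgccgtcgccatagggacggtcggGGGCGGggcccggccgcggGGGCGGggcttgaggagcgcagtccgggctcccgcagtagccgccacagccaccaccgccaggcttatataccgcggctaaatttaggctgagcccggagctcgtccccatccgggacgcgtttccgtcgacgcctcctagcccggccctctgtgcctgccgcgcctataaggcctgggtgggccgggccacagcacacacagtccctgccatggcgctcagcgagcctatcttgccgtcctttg
Klf6 (chr13:5861239-5861538, plus strand): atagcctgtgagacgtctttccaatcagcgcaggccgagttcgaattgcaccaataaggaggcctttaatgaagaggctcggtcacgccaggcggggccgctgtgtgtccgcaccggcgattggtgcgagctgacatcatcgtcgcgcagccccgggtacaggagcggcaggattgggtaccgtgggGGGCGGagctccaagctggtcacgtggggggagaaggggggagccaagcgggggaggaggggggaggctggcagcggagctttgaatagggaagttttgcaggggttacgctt

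All 9 windows held at least 1 GC box, against 35.7% of all 32851 windows and 69.5% of the 10542 windows that overlap a region of the matrix. There were 6 GC boxes at Klf3, 5 at Sp4 and at the inner Sp3 start, 4 at Sp1, 3 at Klf13, 2 at Klf2 and at the outer Sp3 start, and 1 each at Klf6 and Klf7. Windows with 3 or more made up 5 of the 9, 10.7% of all windows and 24.5% of those in a region of the matrix. In Sp1 the boxes began at -210, -197, -81 and -62 from the start site, and in Klf2 at -214 and -195. CACCC boxes, searched as CCACCC or GGGTGG, were present in 6 of the 9 windows (31.5% of all, 36.5% of those in a region), up to 3 each at Klf3 and Klf7. CCAAT boxes, the letters bound by NF-Y and searched as CCAAT or ATTGG, were present in 5 windows (37.4% and 39.0%), with 4 at Klf6 and 3 at Sp1. A MEF2 element, searched by its ambiguous consensus, which reads alike on both strands, was found only at Klf2 among the 9 (3.19% of all windows, 1.03% of those in a region), beginning at -118. TATAAA or TTTATA was in 0 of the 9 windows (13.6% and 5.53%). The windows were 58.3% to 78.7% G or C (median 69.3%, against 52.7% over all windows and 62.3% over those in a region). These matches describe letters and do not show binding.

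By count, the strongest gene end of each gene was among the most accessible regions of these cells. A gene end is here a region within 1 kb of either end of the gene, and 9 of the 35 regions met this, 2 at Sp3 and 1 at each other gene. The strongest per gene covered a start site or, at Klf7, began 0.015 kb from the listed one. The Sp1 region (chr15:102405381-102406834) had the highest count of all 24605 regions in each of the 6 libraries. Its raw counts were 2484, 2982 and 2673 in palmitate libraries 1 to 3, and 1733, 2028 and 2133 in controls 1 to 3. Every palmitate library lay above every control. In the authors' peak lists the Sp1 peak stood within the top 0.173% to 0.771% by score of each list, and those of Klf6, Klf7, Klf13, Sp4 and Klf2 within the top 3.52%. The Klf3 peak stood lower, at 11.0% to 24.4%, and the Sp3 peak as low as 38.1%. All 8 strongest gene ends fell in the strongest decile of tested regions, those with a mean of at least 103 CPM, which held 2432 regions.

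Regions differ in width, so levels between genes were compared per kb. The order was Sp1 (mean of 593 CPM per kb over 6 libraries), Klf6 (490), Klf13 (337), Sp4 (313), Klf2 (289), Klf7 (259), Klf3 (229) and Sp3 (175). Per kb, Sp1 ranked 56 of all regions and Klf6 ranked 144. In both groups Sp1 lay clear of Klf6, and Klf6 of Klf13, in every library. The ranges of neighbours overlapped for Klf13 and Sp4 in both groups, for Sp4 and Klf2 and for Klf7 and Klf3 in palmitate libraries only, and for Klf2 and Klf7 in controls only. Sp3, the lowest, had 194 ± 8.62 CPM per kb with palmitate and 156 ± 17.6 in controls (SD, n = 3 each). Of all counts in each gene's regions, the strongest gene end held 98.1% at Sp1, 85.1% at Klf7, 84.8% at Klf6, 81.7% at Klf3, 81.3% at Klf2, 62.4% at Klf13 and 51.8% at Sp3, and Sp4 had 1 region in all.

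The palmitate-control contrast was read from 1 fit over all 24316 regions that passed a count filter (edgeR quasi-likelihood test, Benjamini-Hochberg adjustment over all regions). A region is called where its false discovery rate is below 0.05, and all 35 family regions passed the filter. All 9 gene ends of the family were called higher with palmitate, and 0 were called lower. Over all gene ends 25.0% were called higher and 2.47% lower, and over all regions 11.9% were called higher and 12.7% lower. In the strongest decile of regions, where 8 of the 9 lie, 70.4% were called higher. Since the genes were picked with this contrast known, nothing is read from the members' count. All palmitate libraries lay above all controls at the 9 gene ends, which held for 35.5% of all gene ends.

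Among the Sp genes, Sp1 had 979, 1013 and 1025 CPM in palmitate libraries, against 755, 675 and 725 CPM in controls. The lowest control there was control 2. The log2 fold change was 0.49 ± 0.053 (SE). Sp4 (chr12:118300975-118302424) had 493, 490 and 526 CPM with palmitate, against 384, 412 and 414 CPM in controls. Its groups lay apart, and the log2 fold change was 0.32 ± 0.057 (SE). Sp3 has 2 start sites with a region at each. The stronger, at the inner start (chr2:72978976-72979950), had raw counts of 479, 581 and 471 with palmitate, against 311, 510 and 441 in controls. On the CPM scale the groups lay apart by a small margin, 181 in the lowest palmitate library against 170 in control 2, with a log2 fold change of 0.31 ± 0.076 (SE). The outer start (chr2:72980300-72980951) had raw counts of 219, 249 and 214 with palmitate, against 167, 211 and 175 in controls (log2 fold change 0.33 ± 0.097, SE), and its call was lost with total counts, trended offsets, the DESeq2 Wald test and without control 3. The call at the inner start was lost with total counts and trended offsets. Both Sp3 regions thus lay within 1 SE of each other in fold change.

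Among the KLF genes, Klf6 (chr13:5861023-5861602) had 314, 330 and 354 CPM with palmitate, against 235, 240 and 234 CPM in controls. The controls were close together there, and the log2 fold change of 0.49 ± 0.062 (SE) was the highest of the 9 gene ends, next to that of Sp1. Klf2 (chr8:72318678-72319382) had 232, 241 and 237 CPM with palmitate, against 180, 175 and 156 CPM in controls (0.48 ± 0.068, SE). Klf3 (chr5:64802920-64803669), a region that also overlaps the predicted gene Gm38457, had 195, 206 and 182 CPM with palmitate, against 144, 149 and 154 CPM in controls (0.38 ± 0.071, SE). Klf7 (chr1:64121404-64122392) varied more, with 306, 251 and 311 CPM in palmitate libraries, against 224, 236 and 211 CPM in controls (0.37 ± 0.072, SE). Palmitate library 2 was the one near the controls. Klf13 (chr7:63938616-63939494) had 339, 345 and 315 CPM with palmitate, against 248, 265 and 265 CPM in controls (0.36 ± 0.061, SE).

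**Figure D1:**
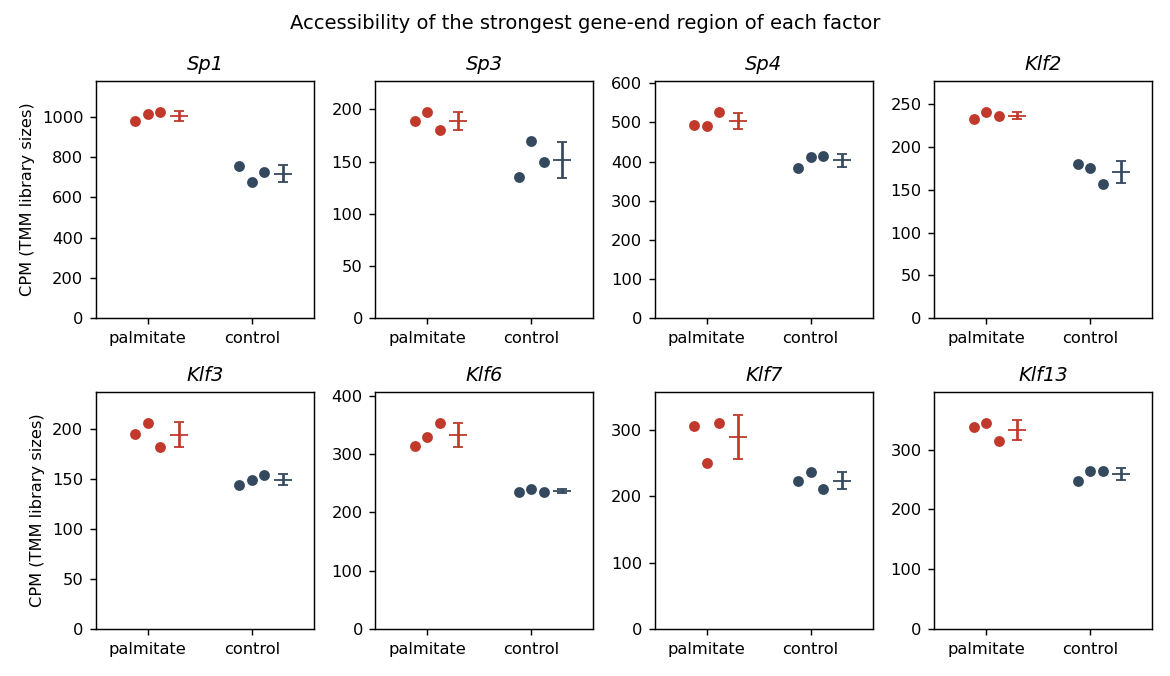
Accessibility (CPM on TMM library sizes, axes from 0) at the strongest gene-end region of each of the 8 genes, with 1 point per library and the mean ± SD (n = 3) beside each group. In every panel the 3 palmitate points lie above the 3 control points, and the levels range from 1025 CPM (Sp1, palmitate 3) to 136 CPM (Sp3, control 1).

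Fold changes over all regions followed the strength of the region. Among the family's gene ends the order was mixed. Sp4 (453 CPM) had a lower log2 fold change (0.32) than Klf2 (204 CPM, 0.48). The strongest, Sp1 (862 CPM), had 0.49 and the inner Sp3 start (170 CPM) had 0.31. A relation to strength among these gene ends was not tested. Over all tested regions the median log2 fold change was 0.27 in the strongest decile and -0.59 in the weakest. A second fit used offsets that level each library's counts along the range of strength (trended offsets). In it the strongest gene ends had log2 fold changes of 0.19 ± 0.064 (SE) at Klf2, 0.17 ± 0.056 at Klf6 and 0.12 ± 0.066 at Klf3. The others were 0.052 ± 0.072 at Klf7, 0.045 ± 0.075 at the inner Sp3 start and 0.030 ± 0.040 at Sp1. Klf13 had 0.027 ± 0.057 and Sp4 had -0.067 ± 0.051. The outer Sp3 start, the remaining gene end, had 0.17 ± 0.097 (SE). Of the 9 gene ends 0 were then called, where 2.30% of all regions were called higher and 4.17% lower. Klf2 and Klf6 lay close to the threshold, with false discovery rates of 0.070 and 0.069 in the edgeR test. Sp4 turned from higher to lower without passing. The Sp1 region is the strongest of all, so no region lies beyond it on the curve. Trended offsets would also take out a true difference that follows strength, and the 2 cannot be told apart in these libraries.

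**Figure D2:**
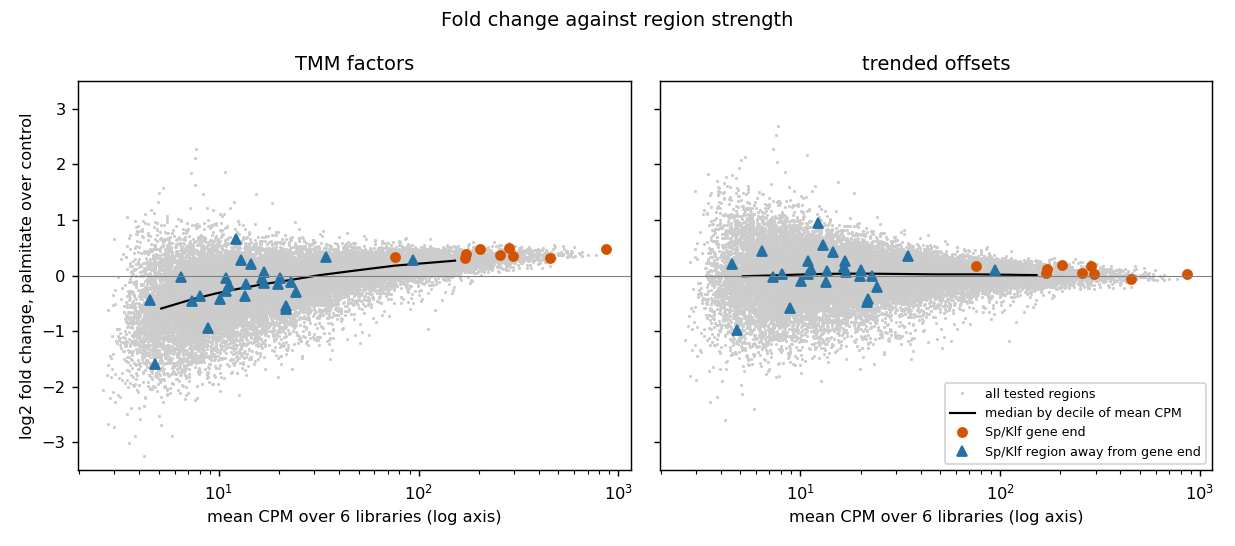
Log2 fold change (palmitate over control) against mean CPM over 6 libraries (log axis) for all tested regions (grey), the family's gene ends (circles) and its other regions (triangles), with TMM factors on the left and trended offsets on the right. The black line joins the medians of 10 strength classes, from -0.59 to 0.27 on the left, and the family's gene ends fall close to 0 on the right.

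The other 26 regions of the loci were weaker, with a median of 13.5 CPM against 256 CPM for the gene ends. Of them 8 lay inside a gene and 18 outside. With palmitate 2 were called higher and 3 lower, against 3.62% called higher and 19.1% called lower over all regions away from gene ends. Their median log2 fold change was -0.16, against -0.24 over all such regions, and 20 of the 26 had a negative value. In 4 of the 26 all palmitate libraries lay below all controls, against 30.1% of all regions away from gene ends.

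The lower calls lay at 3 KLF genes, all downstream of the start site. Most regions away from gene ends belong to KLF genes. Those of the Sp genes (1 at Sp1, 4 at Sp3 and 0 at Sp4) all lay upstream, so nothing is read from this placement. Inside Klf7, 19.7 kb from its start (chr1:64101492-64101641), raw counts were 5, 9 and 5 with palmitate, against 24, 15 and 19 in controls. The region was among the weakest of the loci, at 2.32 ± 0.644 CPM with palmitate and 7.30 ± 2.83 CPM in controls (SD, n = 3 each), and its log2 fold change of -1.58 ± 0.40 (SE) was the lowest of the 35. It was listed in 0 of 3 palmitate peak lists and 2 of 3 control lists. Beyond the end of Klf6, 28.6 kb from its start (chr13:5890121-5890355), raw counts were 16, 21 and 12 with palmitate, against 27, 36 and 33 in controls (-0.94 ± 0.28, SE). It was listed in 1 of 3 palmitate lists and all 3 control lists.

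Beyond the end of Klf2, 11.8 kb from its start (chr8:72330850-72331417), raw counts were 43, 47 and 49 with palmitate, against 61, 59 and 94 in controls (-0.59 ± 0.20, SE). The groups lay apart, and control 3 was the high one. At Klf2 and Klf6 the gene end was thus called higher and a region downstream lower within 1 locus, as at Klf7. Over all regions too, the median log2 fold change was 0.27 in the strongest decile and -0.59 in the weakest. Nothing particular to these loci is read from it. With trended offsets the 3 lower regions had log2 fold changes of -0.97 ± 0.40 at Klf7, -0.58 ± 0.28 at Klf6 and -0.47 ± 0.20 at Klf2 (SE), and 0 of the 3 were called. With TMM factors the Klf2 call was also lost without control 1, control 3, palmitate 1 or palmitate 2, and the Klf6 call without palmitate 3. The Klf2 and Klf6 calls were lost with the DESeq2 Wald test as well. The Klf7 region did not pass a filter of at least 20 reads in 3 libraries.

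The higher calls away from gene ends were at Sp3 and Klf13. A region 15.2 kb upstream of Sp3 (chr2:72995657-72996103) had raw counts of 33, 52 and 37 with palmitate, against 23, 33 and 22 in controls. On the CPM scale it had 15.0 ± 2.42 with palmitate and 9.49 ± 1.81 in controls (SD, n = 3 each), and the groups lay apart (log2 fold change 0.66 ± 0.24, SE). It was listed in 3 of 3 palmitate peak lists and 1 of 3 control lists. With trended offsets its log2 fold change was 0.94 ± 0.24 (SE), and it was the single family region then called. That call was lost without control 3, palmitate 2 or palmitate 3. The TMM call was kept in 6 of 15 other settings and was lost, among others, with total counts and without control 1, control 3, palmitate 2 or palmitate 3.

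Just inside Klf13, 1.04 kb from its start (chr7:63937342-63937879), raw counts were 222, 312 and 300 with palmitate, against 194, 253 and 253 in controls. This is the strongest region of the loci away from a gene end, and it lies just beyond the 1 kb limit of a gene end. The controls agreed closely at 84.9 ± 0.977 CPM, palmitate libraries spread over 103 ± 14.0 CPM (SD, n = 3 each), and palmitate 1 at 87.5 CPM was near the controls (log2 fold change 0.28 ± 0.093, SE). The call was kept in 7 of 15 other settings and was lost, among others, with total counts and without control 1, palmitate 2 or palmitate 3.

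**Figure D3:**
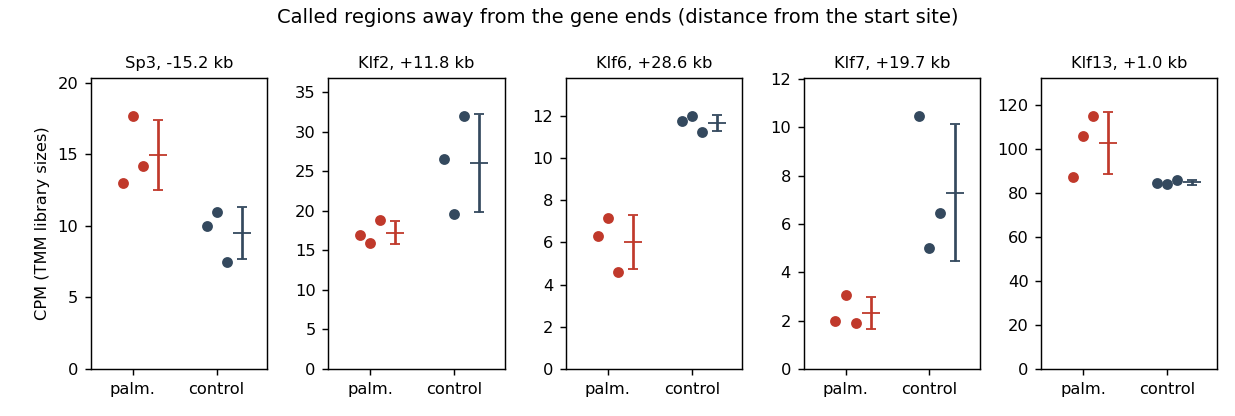
Accessibility (CPM on TMM library sizes, axes from 0) at the 5 called regions away from gene ends, titled by gene and distance from the start site in kb, with 1 point per library and the mean ± SD (n = 3) beside each group. Palmitate libraries lie above controls at Sp3 and Klf13 and below them at Klf2, Klf6 and Klf7.

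At Sp1, Sp3, Klf3, Klf6 and Klf7 the strongest region away from the gene ends was not called. A region 6.12 kb upstream of Sp1 had 40, 45 and 53 raw counts with palmitate and 38, 54 and 43 in controls (0.061 ± 0.21, SE), with overlapping groups. A region 23.7 kb upstream of Sp3 had 104, 113 and 94 with palmitate and 73, 79 and 99 in controls (0.33 ± 0.14, SE). A region 15.5 kb upstream of Klf6 had 54, 67 and 58 with palmitate and 41, 83 and 76 in controls (-0.12 ± 0.18, SE). A region inside Klf3, 8.22 kb from its start, had 46, 34 and 45 with palmitate and 26, 53 and 33 in controls (0.20 ± 0.24, SE). Only the Sp3 one of these 4 had groups that lay apart on the CPM scale. The strongest one at Klf7 away from its ends, 120 kb downstream of its start and beyond the gene, had 56, 34 and 52 with palmitate and 47, 80 and 87 in controls (-0.55 ± 0.21, SE). It lay close to the threshold and was called lower in 6 of 15 other settings, among them total counts and without control 1 or palmitate 1. A region 8.55 kb inside Klf13, picked out after its values were seen, was listed in 0 of 3 palmitate peak lists and 3 of 3 control lists, with overlapping raw counts of 28, 19 and 22 with palmitate and 26, 38 and 31 in controls (-0.43 ± 0.27, SE).

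**Figure D4:**
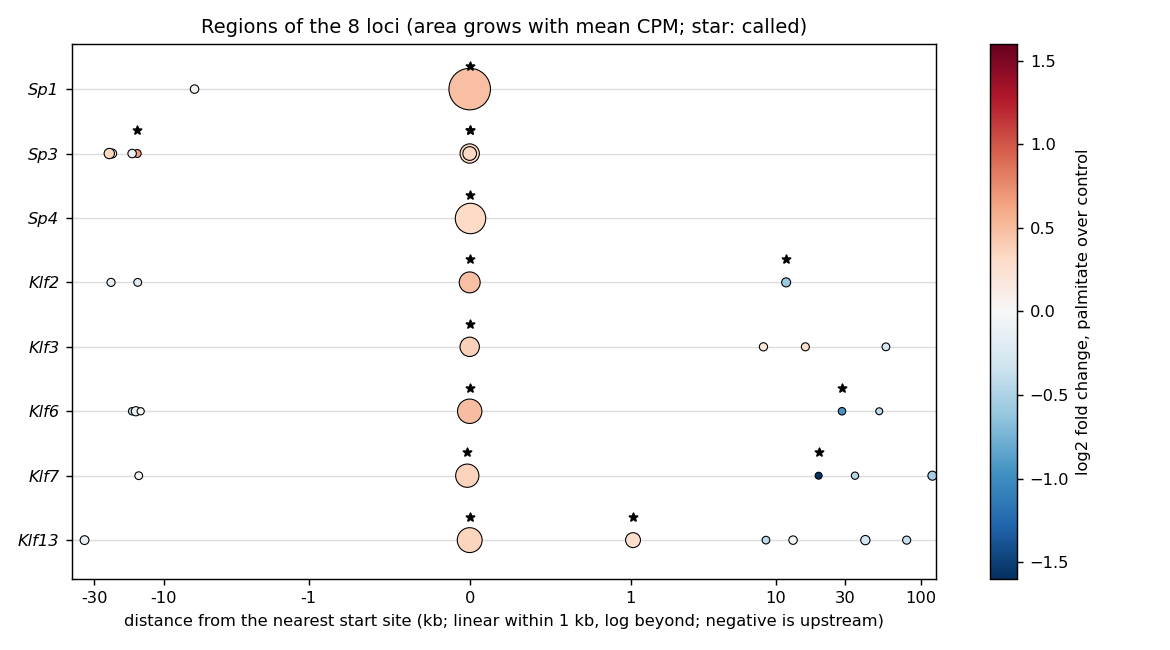
The 35 regions of the 8 loci by distance from the nearest start site (kb, linear within 1 kb and log beyond, negative upstream), with circle area growing with mean CPM, colour giving the log2 fold change (palmitate over control) and a star over each called region. The strongest circle of every gene sits at the start site and is positive, and the 3 negative called regions lie 11.8 to 28.6 kb downstream.

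Every gene end of the family was listed in all 6 of the authors' peak lists, as were 12 of the 26 other regions, which gives 21 of 35. The share over all regions was not computed, so nothing is read from these counts. The lists held 20201 to 21502 peaks in palmitate libraries and 22359 to 27122 in controls.

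Other genes of the family and its pathway were read at 1 gene end each, the one with the highest mean count. Of 18 further Sp and KLF genes, 8 had such a region, of which 6 were called higher, 0 lower and 2 neither (25.0% and 2.47% over all gene ends). Klf12, a repressor that binds CtBP, had 24.4 ± 4.44 CPM with palmitate and 14.2 ± 2.28 CPM in controls (SD, n = 3 each; log2 fold change 0.78 ± 0.20, SE). It was also called with trended offsets (0.94). Klf11, known as a TGF-beta-induced factor, had 299 ± 17.4 CPM with palmitate and 228 ± 15.2 CPM in controls (0.40 ± 0.066, SE), and Klf9, a target of glucocorticoid and thyroid hormone, had 101 ± 7.36 and 81.5 ± 4.76 CPM (0.31 ± 0.089, SE). The median log2 fold change of the 8 was 0.27, against 0.14 over all gene ends. The 2 sets are unlike, since the 8 are the strongest end of each gene and the 0.14 covers ends of any strength. In the strongest decile of regions the median was 0.27. With trended offsets the median was 0.069 for the 8 and 0.053 over all gene ends. With total counts 2 of the 8 were called higher, and with trended offsets 1.

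Of 16 genes for cofactors and partner proteins, 12 were read, 7 were called higher and 0 lower (25.0% and 2.47% over all gene ends). The largest were at Taf4, a TFIID subunit contacted by Sp1 (84.7 ± 5.33 CPM with palmitate and 63.6 ± 3.27 in controls, 0.41 ± 0.096, SE), Ep300, an acetyltransferase (0.32 ± 0.077), and Hdac1, a deacetylase (0.28 ± 0.078). Of 10 genes that act upstream of KLF2 or on its turnover, 7 were read, 5 were called higher and 0 lower, beside the same shares. In the strongest decile of regions 70.4% were called higher, so nothing is read from the counts of these 2 lists. Foxo3 had 240 ± 3.29 CPM with palmitate and 177 ± 4.96 in controls (0.44 ± 0.065, SE). Mef2d, of the MEF2 factors that act on Klf2 (0.39 ± 0.070), and Foxo1, which activates Klf2 in T cells (0.29 ± 0.11, SE), were also called. With trended offsets 0 genes of these 2 lists were called, and with total counts 3 of the cofactor genes and 2 of the upstream genes were called higher and 1 cofactor gene lower. Higher calls among upstream genes fell to 2 with upper-quartile factors and 3 with the DESeq2 Wald test, and were 2 to 5 with 1 library left out. Those among cofactor genes were 5, 4 and 5 to 7.

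Of 12 target genes, 7 were read, 2 were called higher and 0 lower (25.0% and 2.47% over all gene ends). Tgfbr1, a TGF-beta receptor chain, had 243 ± 8.15 CPM with palmitate and 174 ± 12.3 in controls (0.48 ± 0.068, SE), also called with trended offsets (0.20). S1pr1, the KLF2 target named here for that role after its value was seen, had 43.3 ± 2.03 CPM with palmitate and 46.1 ± 5.22 in controls (-0.095 ± 0.13, SE; not called). The median of the 7 was -0.00070.

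The gene ends most like that of Sp1 over the 6 libraries were sought by distance in log2 CPM, centred on each region's mean, among 8836 gene-end regions of other genes. They were those of Ube2o, a ubiquitin-conjugating enzyme (distance 0.051), Grk6, a kinase of G protein-coupled receptors (0.068), and Ptbp1, a splicing regulator (0.068). Those most like Klf2 were at Zfp775 (0.052), Mvd, an enzyme of sterol synthesis (0.091), and Rtn4, a protein of the endoplasmic reticulum (0.092). Within the family Klf3 and Klf13 were closest to each other (0.061) and Sp1 and Sp3 farthest apart (0.42). The 6 regions of other genes had log2 fold changes of 0.44 to 0.54, a likeness that the choice by distance over the same libraries sets in advance. The distance leaves out level. Ube2o had means of 50.9 CPM with palmitate and 37.2 CPM in controls, against 1006 and 718 CPM at Sp1.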

How the data were processed

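ATAC-seq of 3 palmitate and 3 control libraries was analysed. The authors deposited a matrix of raw counts for 24605 regions in mm10, 1 column per library, and all its columns were used. The peak lists as deposited by the authors hold 1 library's filtered peaks each, with the authors' score, used only to list and rank peaks within a list. Per the submitters' processing notes, the tools were MACS2 2.2.8, Bowtie2 2.5.1, edgeR 3.40.2, Trim Galore 0.6.10 and Picard 2.23.8, with mm10. How reads were shifted for Tn5, merged into regions and counted is not given in the sources used.

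Regions were placed with 21896 protein-coding genes of GRCm38.p6 and RefSeq start-site windows. The test was edgeR 4.0.16 (R 4.3.3), quasi-likelihood, TMM factors (0.953 to 1.05), filterByExpr (24316 regions), Benjamini-Hochberg at 0.05, run once over all regions and tested on simulated data. The simulated counts had a common dispersion and no shift along strength, so they cannot show how such a shift affects the calls. The SE of a log2 fold change is its size over the root of F. Trended offsets used a loess curve (span 0.3, pseudocount 0.5) of log count on abundance. Named were the 8 genes, each gene's strongest region away from its ends, up to 3 called regions per gene, up to 3 called genes per list and direction, and the 3 nearest patterns of Sp1 and Klf2. Of the target list, 1 called gene that this rule names is not reported here. Members, lists and named genes were chosen with earlier results of these data known. Alternatives used DESeq2 1.42.0 and limma 3.58.1, other scalings, filters and limits, leaving out each library, and a replicate block.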

Additional observations from a re-analysis of the deposited data

How the results depend on the processing

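The 11 higher and 3 lower calls among the 35 family regions moved most with scaling. With total counts 7 were higher, and with trended offsets 1 was higher and 0 were lower. Calls over all regions moved too, from 2894 higher and 3078 lower with TMM. They were 1282 and 4331 with total counts, and 559 and 1014 with trended offsets. Total counts shifted the median of all regions to -0.16 and upper-quartile factors to -0.10, against -0.046 with TMM, and higher calls made up 22.8% and 35.6% of all calls, against 48.5% with TMM and 35.5% with trended offsets. The DESeq2 Wald test called 8 higher and 1 lower, and over all regions 1888 higher and 1236 lower. Among the 21 regions in all 6 peak lists 1 was lower. The 8 strongest gene ends were all called in every setting except total counts, where 7 were, and trended offsets, where 0 were, with Sp4 turning to -0.067. Leaving out libraries 1 at a time gave 9 to 11 higher and 2 to 3 lower calls with TMM. The same under trended offsets, an alternative added once the data had been seen, gave 0 to 4 higher calls, 0 to 1 lower and 0 to 2 gene ends, the highest without control 2, where Klf2 (0.24) and Klf6 (0.21) were called. The region upstream of Sp1 turned to -0.055 with total counts and, with libraries left out, ranged from -0.074 to 0.14. With peaks above the median score 9 of 35 regions were in all lists. The replicate block gave 10 higher and 3 lower calls. Same-numbered libraries did not deviate together (correlations 0.00043, -0.10 and -0.027), and those of unlike number ranged from -0.069 to 0.093. With 3 libraries per group and values this near 0, the check cannot show whether same-numbered libraries share an animal or culture. The 3 lower regions rest on 5 to 94 reads per library, which limits the change that could be detected there. The causes of these shifts were not tested.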

Other observations

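Beyond 50 kb, 26 further regions had an end of one of the 8 genes as their nearest, 57.8 to 453 kb away. Of the 25 that passed the count filter 0 were called higher and 4 lower, against 3.62% and 19.1% over all regions away from gene ends. A region 109 kb from Klf6 (chr13:5979537-5979744) had 2.37, 3.06 and 2.68 CPM with palmitate, against 6.97, 5.66 and 10.2 CPM in controls (log2 fold change -1.47 ± 0.37, SE). Another 289 kb from Klf6 had -1.10 ± 0.37, and regions 71.8 and 123 kb from Sp4 had -0.54 ± 0.19 and -0.78 ± 0.28 (SE). The groups lay apart at 71.8 kb and 109 kb and overlapped at the other two.

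Peaks tied to the 8 genes by the same rule but outside every region of the matrix numbered 1, 2 and 7 in palmitate lists and 3, 9 and 3 in control lists. Palmitate 3 and control 2 had the most, and the ranges of the groups overlap.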
